A study of Mus musculus with 2 samples.

Results

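The transcripts of 10 genes that carry or restrain nuclear factor κB (NF-κB) signaling were measured in cultures of wild-type (WT) mouse bone marrow cells. M is the library of the culture that received macrophage colony-stimulating factor (M-CSF), and MR is the library of the culture that also received receptor activator of NF-κB ligand (RANKL). They are the 5 DNA-binding subunits Nfkb1, Nfkb2, Rela, Relb and Rel, the inhibitors Nfkbia, Nfkbie, Tnfaip3 and Cyld, and Map3k14, the NF-κB-inducing kinase. These 10 genes were chosen by name, out of 15169 genes that had an assembled locus, or lay inside one, in at least 1 library. The labels give M-CSF for the M library, and M-CSF with RANKL for 2 days after a culture in M-CSF for the MR library. The culture method of the study gives a longer time with RANKL, without saying when RNA was taken for sequencing, so the time behind MR is uncertain. Neither library is labelled with a mutation, a sex or an age. Each condition has 1 library and no replicate, so no test was run, and every value below describes these 2 libraries. Whether a difference comes from more RNA per cell or from more cells of 1 kind cannot be told apart in such bulk RNA.

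NF-κB factors are dimers of the 5 subunits. In resting cells IκB proteins, such as the products of Nfkbia and Nfkbie, hold them in the cytoplasm. RANKL binds its receptor RANK, the adaptor Traf6 passes the signal to the TAK1 and IκB kinase (IKK) complexes, and the IκB proteins are destroyed, which frees dimers of Rela and the p50 product of Nfkb1. In a slower, noncanonical arm, Map3k14 is freed from Traf3 and the cIAP proteins and acts through the kinase Chuk (IKKα) to cut the Nfkb2 precursor to p52, the partner of Relb. The pathway is required for the formation of osteoclasts, the cells that resorb bone, and several of its brakes, Nfkbia and Tnfaip3 among them, are themselves NF-κB target genes.

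The level of a gene is given in TPM, the transcript abundance per length that StringTie scales to an equal total in each library, summed over the loci that StringTie assembled on the gene. The log2 ratio is that of MR to M after adding 1 to each TPM. The M library held an estimated 3.63 Gb of aligned bases and the MR library 2.98 Gb. From these, each member had between 184 and 817 read pairs in M and between 230 and 3010 in MR. The bracketed 95% intervals are approximate and cover counting error only, not the difference between cultures. Markers of the cell types that such cultures can hold were read as levels. All 9 osteoclast markers had a log2 ratio above 1, with a summed level of 126 TPM in M and 24993 TPM in MR, and Oscar, Calcr, Dcstamp and Ocstamp had no locus in M. The 7 macrophage markers summed to 20348 TPM in M and 7888 TPM in MR. Most of both sums was Lyz2, at 16035 and 4535 TPM, which shares its locus with another coding gene. Of the 7, 4 had a log2 ratio below -1, and Csf1r was higher in MR, at 697 and 872 TPM. The 8 neutrophil markers were present in both libraries, at 1365 and 953 TPM in sum, and the B and T lymphocyte, dendritic cell and stromal lists each summed to 35 TPM or less, with Cd3e, Cd3g and Cd8a at 0 in both. The part of these marker differences in the values below was not tested.

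The DNA just before the start of the member genes was searched for the κB motif, the site that NF-κB dimers bind, since Nfkbia, Nfkb2 and Tnfaip3 are textbook targets of the pathway and stand among the 5 members with the largest log2 ratios. RefSeq promoter windows on GRCm38.p6, from 250 bases before to 50 bases after a start, were given for 8 of the 10 genes, in 11 windows, and not for Nfkb1 and Relb. The degenerate 10-base κB consensus was found, on either strand, in 8 of these 11 windows, which belong to 6 of the 8 genes, and in 4.51% of all 32851 windows. Windows of 1 gene can overlap, and several of the genes were searched because they are known targets. A match describes letters only and does not show that a factor bound there.

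Windows were given for 4 of the 5 members with a log2 ratio above 1 (Nfkb2, Nfkbia, Nfkbie and Tnfaip3), and each held a match. They were also given for 4 of the other 5, of which Rel and Cyld held a match and Rela and Map3k14 did not. The stretches directly before the start are shown 5′ to 3′ on the strand of the gene for Nfkbia and Nfkbie, which were higher in MR, and for Rel and Cyld, whose log2 ratios were not above 1, so that a κB match can be seen in both kinds of member. Capitals mark the κB match. In Nfkbia it lies 29 to 20 bases before the start, in Nfkbie 106 to 97, in Rel 92 to 82, where matches on both strands overlap, and in Cyld 155 to 146.
Nfkbia, chr12:55492648-55492897: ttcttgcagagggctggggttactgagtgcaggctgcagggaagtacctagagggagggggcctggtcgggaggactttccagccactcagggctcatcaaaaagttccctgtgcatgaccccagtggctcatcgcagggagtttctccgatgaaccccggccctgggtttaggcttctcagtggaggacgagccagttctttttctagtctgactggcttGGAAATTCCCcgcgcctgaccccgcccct
Nfkbie, chr17:45555450-45555699: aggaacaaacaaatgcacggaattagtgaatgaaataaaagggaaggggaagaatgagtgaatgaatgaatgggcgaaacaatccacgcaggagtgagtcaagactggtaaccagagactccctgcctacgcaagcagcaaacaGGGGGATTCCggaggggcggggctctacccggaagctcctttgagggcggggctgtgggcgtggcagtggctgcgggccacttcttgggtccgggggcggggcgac
Rel, chr11:23770971-23771219: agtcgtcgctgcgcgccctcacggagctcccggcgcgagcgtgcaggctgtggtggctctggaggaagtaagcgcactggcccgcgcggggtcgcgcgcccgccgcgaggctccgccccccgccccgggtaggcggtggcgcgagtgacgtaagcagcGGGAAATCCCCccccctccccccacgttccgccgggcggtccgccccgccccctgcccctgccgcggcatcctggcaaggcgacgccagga
Cyld, chr8:88696778-88697027: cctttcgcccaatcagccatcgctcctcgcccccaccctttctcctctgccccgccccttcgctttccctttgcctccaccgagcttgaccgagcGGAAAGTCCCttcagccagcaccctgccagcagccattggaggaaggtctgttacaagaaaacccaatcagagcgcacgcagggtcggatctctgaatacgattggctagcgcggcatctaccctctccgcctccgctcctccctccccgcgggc

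For Nfkb2 and Tnfaip3, whose annotated exons reach into these windows, only the sites are shown, with 8 bases on either side. Nfkb2 has 3 RefSeq starts and 4 sites, and Tnfaip3 has 2 sites, 125 to 116 and 12 to 3 bases before 1 of its starts.
Nfkb2, chr19:46304690-46304716: atcgtcacGGGAATTCCCCccctcggg
Nfkb2, chr19:46304718-46304743: ggccgaaaGGGGCTTTCCcggctgga
Nfkb2, chr19:46305451-46305476: cgacggcaGGAATGTCCCcacaaaag
Nfkb2, chr19:46305697-46305722: gtattttcGGGACTTTCCtaagcagc
Tnfaip3, chr10:19015518-19015543: ctcacgcgGGGACACCCCggggcggg
Tnfaip3, chr10:19015405-19015430: tttccatcGGAAATCCCCctgttggc

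Of the 10 members, 5 had a log2 ratio above 1 (Nfkbia, Nfkb2, Tnfaip3, Nfkbie and Relb) and 0 had one below -1. Among all 13464 genes tested, which carried their own locus and reached 1 TPM in M or MR, 2860 genes, or 21.2%, were above 1 and 1784 genes, or 13.3%, were below -1. All 10 members passed that filter, and all 10 passed it in both libraries. The median log2 ratio was 0.83 over the members and 0.21 over all genes tested. The interval lay wholly above 1 for 3 members, Nfkbia, Nfkb2 and Tnfaip3, and held 1 for Relb and Nfkbie. The member with the lowest ratio was Rela.

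**Figure D1:**
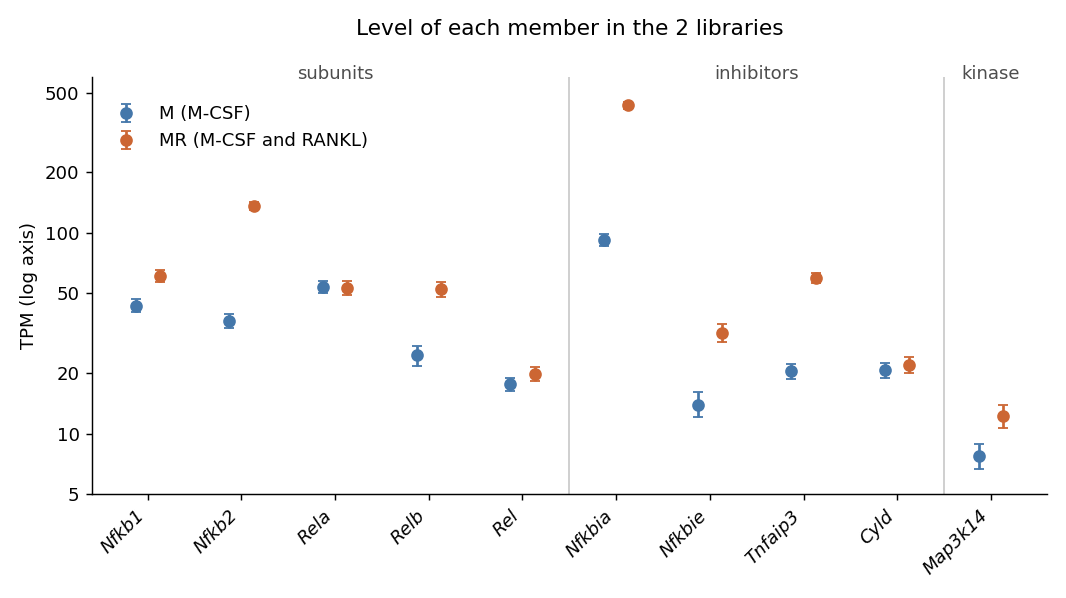
Points give the TPM of each member on a log axis in the M library (blue) and the MR library (orange), and bars give the 95% counting interval. Nfkbia, at 91.8 TPM in M and 432 TPM in MR, stands above the others in both libraries, while the points of Rela, Rel and Cyld nearly coincide.

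Among the subunits, Nfkb2, which encodes the p100 precursor of p52, had the largest difference. Nfkb2 (chr19:46304320-46312385, plus strand) was at 36.5 TPM in M (33.7 to 39.5) and at 136 TPM in MR (130 to 143), 3.74-fold higher in MR, with a log2 ratio of 1.87 (1.74 to 2.0). Of the genes tested, 8.07% had a higher log2 ratio than Nfkb2. Relb, the subunit that pairs with p52, lies on chromosome 7 (chr7:19606217-19629438, minus strand). Relb was at 24.5 TPM in M (21.8 to 27.5) and at 52.5 TPM in MR (48.0 to 57.2), which gives a log2 ratio of 1.07 (0.87 to 1.26). Of the genes tested, 19.7% had a higher log2 ratio than Relb. Both subunits of the noncanonical arm were thus higher in MR.

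The subunits of the canonical arm differed less. Nfkb1 (chr3:135584655-135691547, minus strand), the source of p50, was at 43.5 TPM in M (40.4 to 46.7) and at 61.3 TPM in MR (57.2 to 65.7). Its log2 ratio was 0.49 (0.35 to 0.63), and 37.0% of the genes tested had a higher one. Rela (chr19:5637483-5648130, plus strand), which encodes the transactivating subunit p65, was at 53.7 TPM in M (50.1 to 57.5) and at 53.0 TPM in MR (49.0 to 57.3). The log2 ratio of Rela was -0.02 (-0.17 to 0.13), so the levels in the 2 libraries lay within counting error of each other. Rel (chr11:23736847-23770970, minus strand), which encodes c-Rel, was at 17.6 TPM in M (16.4 to 19.0) and at 19.8 TPM in MR (18.3 to 21.4). The log2 ratio of Rel was 0.16 (0.02 to 0.30), and it was -0.01 after median-of-ratios scaling, which sets the typical gene at 0. Rela, Rel and Cyld were the 3 members below the median of all genes.

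The 5 subunits together summed to 176 TPM in M and 323 TPM in MR. Rela held the largest share of that sum in M, at 30.5%, followed by Nfkb1 at 24.7%, Nfkb2 at 20.8%, Relb at 14.0% and Rel at 10.03%. In MR, Nfkb2 held the largest share, at 42.2%, followed by Nfkb1 at 19.0%, Rela at 16.4%, Relb at 16.2% and Rel at 6.13%. Nfkb2 thus went from the third place to the first. The order of the other 4 subunits depended on the processing. By coverage Nfkb1 in MR, at 17.7%, stood below Rela at 18.9% and Relb at 18.7%, and with a mean over loci, explained with the loci of Relb, Relb in M, at 9.79%, stood below Rel at 10.5%. The intervals of Rela and Relb overlapped in MR and did not in M. Per transcript of Rela there were 0.68 of Nfkb2 in M and 2.58 in MR, and 0.46 of Relb in M and 0.99 in MR. These are shares of RNA, and neither the amount of protein nor the cutting of p100 and p105 was measured here.

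**Figure D2:**
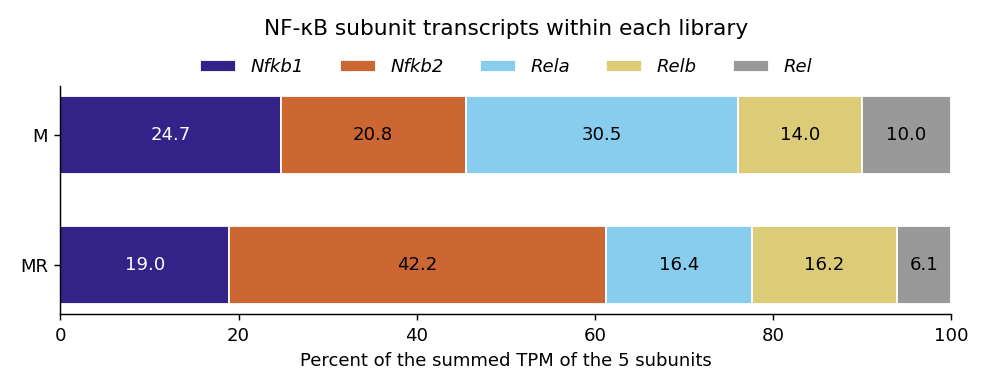
Bars give the share of each subunit, in percent, of the summed TPM of the 5 NF-κB subunits in the M library (176 TPM) and the MR library (323 TPM). The share of Nfkb2 is 20.8% in M and 42.2% in MR, and that of Rela is 30.5% and 16.4%.

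Of the inhibitors, Nfkbia had the highest level and the largest log2 ratio of all 10 members. Nfkbia (chr12:55489410-55492647, minus strand) encodes IκBα, which takes NF-κB out of the nucleus and is made anew after each round of signaling. Nfkbia was at 91.8 TPM in M (85.6 to 98.3) and at 432 TPM in MR (416 to 447), 4.70-fold higher in MR. The log2 ratio of Nfkbia was 2.22 (2.11 to 2.33), and 5.71% of the genes tested had a higher one. Its level was passed by 11.3% of the genes tested in M and by 2.55% in MR.

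Nfkbie (chr17:45555703-45563169, plus strand), which encodes IκBε, was at 14.0 TPM in M (12.1 to 16.1) and at 31.7 TPM in MR (28.5 to 35.3). The log2 ratio of Nfkbie was 1.13 (0.89 to 1.37), with 190 read pairs in M, among the fewest of the members. The related gene Nfkbib, which encodes IκBβ, was not a member and was at 54.6 TPM in M and 56.3 TPM in MR. Nfkbia, Nfkbib and Nfkbie summed to 160 TPM in M and to 520 TPM in MR, of which Nfkbia made up 57.3% and 83.0%. Set against the summed subunits, there were 0.91 of these IκB transcripts for each subunit transcript in M and 1.61 in MR. Against Rela alone, Nfkbia stood at 1.71 in M and at 8.14 in MR.

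The remaining inhibitors act on ubiquitin chains upstream of IKK. Tnfaip3 (chr10:19000910-19015657, minus strand) encodes A20, which edits such chains to end signaling. It was at 20.5 TPM in M (18.7 to 22.4) and at 59.4 TPM in MR (56.0 to 62.9), 2.90-fold higher, with a log2 ratio of 1.49 (1.35 to 1.64). Cyld (chr8:88697028-88751945, plus strand) encodes a deubiquitinase that removes chains from Traf6 and other adaptors. Cyld was at 20.7 TPM in M (18.9 to 22.6) and at 22.0 TPM in MR (19.98 to 24.2). The log2 ratio of Cyld was 0.08 (-0.09 to 0.26), and -0.09 after median-of-ratios scaling. The ratio of Tnfaip3 to Cyld was 0.99 in M and 2.70 in MR by TPM, but 2.78 in M and 4.07 in MR by coverage.

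Map3k14 (chr11:103219762-103267472, minus strand), whose kinase is kept scarce by constant breakdown of the protein, had the lowest level of the 10 members in both libraries. It was at 7.73 TPM in M (6.65 to 8.93) and at 12.3 TPM in MR (10.7 to 14.0), which gives a log2 ratio of 0.60 (0.35 to 0.85). Traf3, the adaptor that targets this kinase for breakdown, was at 7.51 TPM in M and 13.4 TPM in MR. The ratio of Map3k14 to Traf3 was 1.03 in M and 0.92 in MR.

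Ordered by level in M, the members ran Nfkbia, Rela, Nfkb1, Nfkb2, Relb, Cyld, Tnfaip3, Rel, Nfkbie and Map3k14. The place of Relb rests on the sum of its 2 loci in M, and with a mean over them, at 16.4 TPM, it stood below Rel. Neighbors from Relb through Cyld and Tnfaip3 to Rel had overlapping intervals, and the other neighbors did not. In MR the order was Nfkbia, Nfkb2, Nfkb1, Tnfaip3, Rela, Relb, Nfkbie, Cyld, Rel and Map3k14. There, neighbors from Nfkb1 through Tnfaip3 and Rela to Relb overlapped, as did Cyld and Rel. Nfkb2, Tnfaip3 and Nfkbie stood higher in the order of MR than in that of M.

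The loci behind these values were compared with the gene models of GENCODE vM21 on GRCm38. In 9 of the 10 members, 1 locus covered the gene in each library. The exception was Relb, whose transcript was assembled in M as a 3′ locus of 19.8 TPM with 76.3% of the exon bases and a 5′ locus of 4.71 TPM with 22.1%, with 7752 bases between them, and as 1 locus of 52.5 TPM in MR. Adding the M loci may count 1 transcript more than once, since TPM is per length. When the loci were instead averaged by the exon bases they hold, an alternative chosen after seeing the data, Relb was at 16.4 TPM in M and its log2 ratio was 1.62. Relb was therefore above 1 under either treatment, with a ratio that depended on it.

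The MR locus of Nfkb2 began 717 bases before the annotated 5′ end, and its M locus began 280 bases inside it. The loci held 97.0% of the exon bases in MR and 85.9% in M. An antisense RNA gene, AC114539.1 (chr19:46303591-46305611, minus strand), spans this end, and no locus was given to it in either library. At the other end, the minus-strand gene Psd overlaps the last bases of Nfkb2 and was at 2.55 TPM in M and 13.2 TPM in MR. The labels do not say whether the kit kept the strand, so reads in these overlaps cannot be assigned with certainty.

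The M locus of Cyld ended 2598 bases short of the annotated 3′ end and held 79.3% of the exon bases, whereas the MR locus ended 51 bases short and held 99.5%. For Cyld the deposited coverage, a read depth per base, was also lower than the FPKM implies. This was so to a lesser degree for Nfkb1, Nfkb2, Map3k14 and Tnfaip3. Per aligned Gb the coverage of Cyld was 3.25 in M and 5.98 in MR, which is a log2 ratio of 0.71 with 1 added. By TPM Cyld was level between the libraries and by coverage it was higher in MR, so its ratio is uncertain. In the other 9 members the log2 ratios from coverage and from TPM differed by 0.29 or less, the most in Nfkb2. The Map3k14 locus overlaps the noncoding gene 1700028N14Rik on the same strand, and that of Nfkb1 overlaps the unverified gene model Gm43430 (chr3:135650670-135654566), so that reads of these members could include some from those genes.

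**Figure D3:**
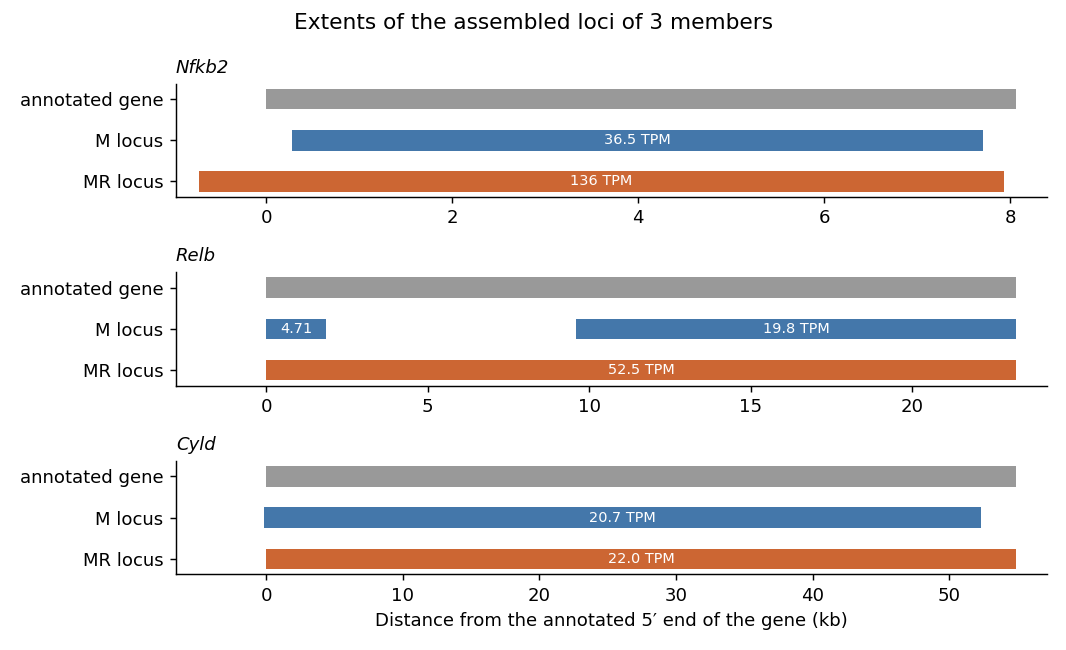
Bars give the extent of the annotated gene (gray) and of the loci assembled in M (blue) and in MR (orange) for Nfkb2, Relb and Cyld, in kb from the annotated 5′ end, with the TPM of each locus. Relb has 2 loci in M, the Nfkb2 locus of MR starts before the gene, and the Cyld locus of M stops 2598 bases before the 3′ end.

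The remaining machinery of the pathway was read from 52 genes in 7 lists, all with a value. Of these 52 genes, 10 had a log2 ratio above 1 and 6 had one below -1, beside 21.2% and 13.3% of all genes tested. The same shares are the background for the counts of each list below. The median of the 52 genes was 0.20, next to 0.21 over all genes tested. The spread among lists was wide. Lists were chosen by role with earlier results of these data known, so that their counts are descriptions.

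The adaptors and cIAP ligases of the tumor necrosis factor receptor family gave the list with the highest median, 1.10, and 6 of its 7 genes were above 1. Traf6, which carries the RANK signal, was at 12.3 TPM in M and 32.7 TPM in MR, which gives a log2 ratio of 1.34 (1.18 to 1.49). Traf1, an adaptor induced by NF-κB, was at 21.8 TPM in M and 148 TPM in MR, which gives a log2 ratio of 2.71 (2.52 to 2.89). Traf5 had a log2 ratio of 1.61, Birc3 one of 1.10, Birc2 one of 1.08 and Traf2 one of 1.01. The last 3 are close to the limit of 1 and were under it after median-of-ratios scaling, at 0.92 for Birc3, 0.91 for Birc2 and 0.84 for Traf2. Traf3 was the gene of this list that was not above 1, at 0.75.

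The genes of the IKK complex differed in direction. Ikbkg, the scaffold NEMO, was at 21.2 TPM in M and 62.9 TPM in MR, which gives a log2 ratio of 1.53. The kinases Chuk (IKKα) and Ikbkb (IKKβ) had log2 ratios of 0.21 and -0.48. The IKK-related kinase Ikbke, which acts in the interferon response, was at 92.2 TPM in M and 18.3 TPM in MR, which gives a log2 ratio of -2.27, and its relative Tbk1 was at 69.0 and 58.9 TPM. The TAK1 complex had 0 of 4 genes past 1 in either direction, with log2 ratios from 0.01 to 0.79, and the ubiquitin assembly and IκB ligase genes had 0 of 11, from -0.64 to 0.43.

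Among 5 other IκB proteins, those that act in the nucleus differed in direction. Bcl3 was at 27.7 TPM in M and 51.1 TPM in MR, a gene outside the naming rule that was added after its values were seen. Nfkbid (IκBNS) was at 4.88 TPM in M and 26.3 TPM in MR, which gives a log2 ratio of 2.22, and 1.22 by coverage. Nfkbiz (IκBζ) was at 20.8 TPM in M and 3.82 TPM in MR, which gives a log2 ratio of -2.17, and -1.09 by coverage. Of 12 further brakes, Zfand5 was above 1, at 75.2 TPM in M and 307 TPM in MR, and Pdlim2, which directs p65 to breakdown in the nucleus, was below -1, at 46.2 and 19.6 TPM. Commd1 was also below -1, at 151 and 63.2 TPM, but it shares its locus with another coding gene and its coverage gave the opposite direction, a log2 ratio of 2.43. The median of these 12 genes was -0.10, and that of the 5 other IκB proteins was 0.76.

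Of 8 receptors, 1 was above 1 and 2 were below -1, with a median of -0.65. Tnfrsf11a, which encodes RANK, was at 37.6 TPM in M and 60.0 TPM in MR, with a log2 ratio of 0.66 (0.55 to 0.77). Cd40 was at 55.2 TPM in M and 18.6 TPM in MR, and Tlr4, the receptor for bacterial lipopolysaccharide, was at 40.0 and 12.8 TPM. The receptor above 1 was Il1r1, at 0 TPM in M and 1.79 TPM in MR, a gene outside the naming rule that was chosen after its value was seen.

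Textbook target genes of NF-κB differed in direction. Of 18 such genes, 16 had a value, of which 5 were higher in MR. Of the 16 genes, 3 were above 1 and 9 were below -1, and the median was -1.15. Among list genes that reached 10 TPM, 12 had a value, of which 2 were above 1 and 6 below -1. Of all genes tested that reached 10 TPM, 18.4% were above 1 and 11.3% below -1. Nfkbia, Nfkb2 and Tnfaip3 are also textbook targets but were counted as members only, with log2 ratios of 2.22, 1.87 and 1.49. Ccl5, a chemokine, was at 2135 TPM in M and 130 TPM in MR, which gives a log2 ratio of -4.02. Tnf was at 43.4 and 7.10 TPM, and Bcl2l1, a survival gene, at 96.0 and 14.2 TPM. Cd83 and Ier3 had log2 ratios of -1.28 and -1.25. Traf1 and Birc3, which count in this list and among the adaptors, were above 1. So was Cxcl1, at 0.60 and 2.26 TPM, which is outside the naming rule and was chosen after its values were seen. Il6 and Ptgs2 had no locus in either library. Of the 7 macrophage markers, 4 had a log2 ratio below -1. Among these were Adgre1 at 681 and 148 TPM and Mertk at 108 and 15.8 TPM. Csf1r was higher in MR, at 697 and 872 TPM, and Cd68 and Itgam had log2 ratios of -0.26 and -0.34. The part of these marker differences in the values of the target genes was not tested.

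**Figure D4:**
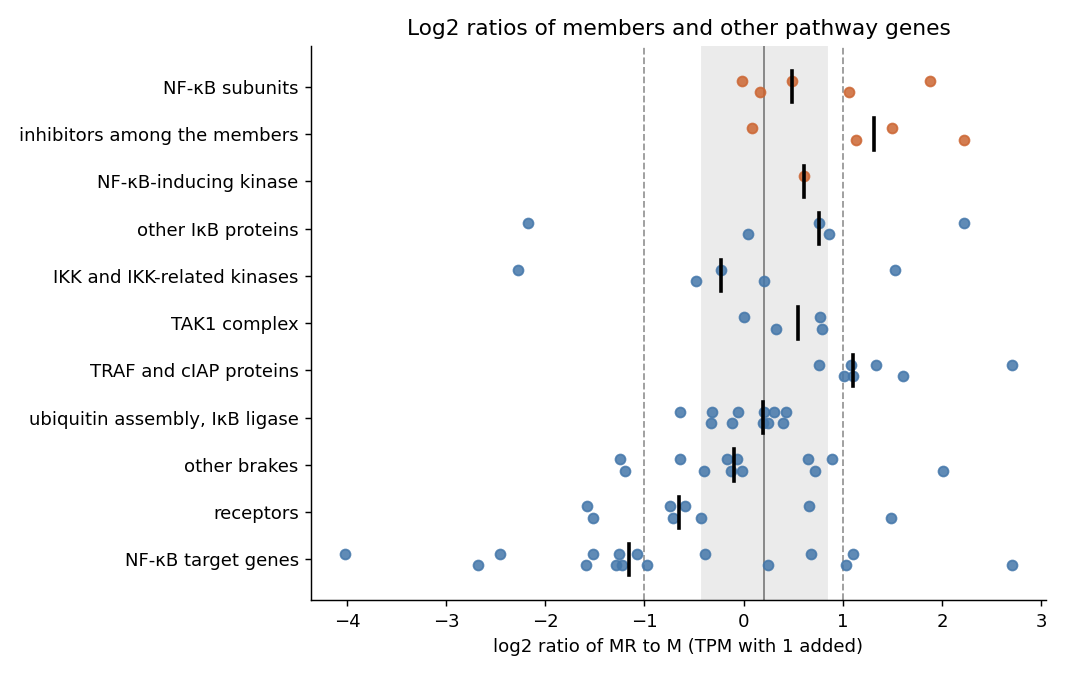
Each point is the log2 ratio of MR to M of 1 gene (TPM with 1 added), for members (orange) and other pathway genes (blue), and black ticks give the list medians. The gray line and band give the median and the middle range, from the lower to the upper quartile, of all genes tested. The TRAF and cIAP list has a median of 1.10 and the target genes one of -1.15.

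The members' ratios were recomputed under 10 alternatives. Every member kept its reported ratio without a filter, above 10 TPM, with at least 200 exon bases and with loci in both libraries. A mean over loci changed only Relb among the members. Nfkbia, Nfkb2 and Tnfaip3 had a log2 ratio above 1 under all 10 alternatives, at 2.04 to 2.23, 1.59 to 1.90 and 1.31 to 1.53. Nfkbie ranged from 0.96 to 1.18 and Relb from 0.89 to 1.62. Median-of-ratios scaling lowers the log2 ratio by about 0.18, and under it the number of members above 1 was 3 and not 5. Under the same scaling 18.2% of all genes tested were above 1. Rela was below 0 under all 10 alternatives, down to -0.20.

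**Figure D5:**
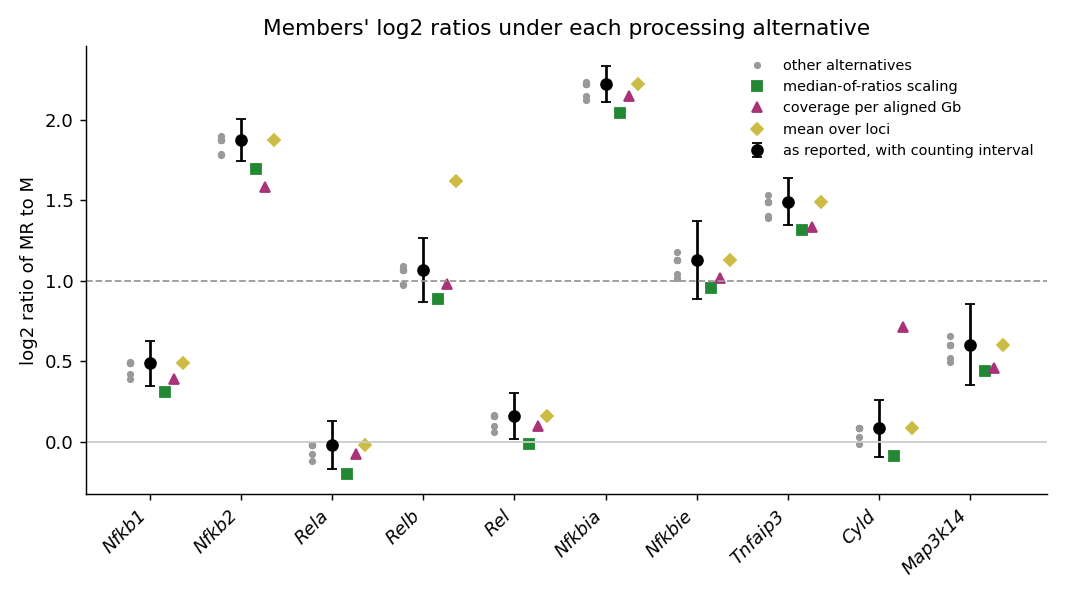
Points give the log2 ratio of MR to M of each member as reported (black, with the 95% counting interval) and under each processing alternative, and the dashed line marks 1. Nfkbia, Nfkb2 and Tnfaip3 stay above the line throughout, Relb and Nfkbie cross it, and the coverage value of Cyld, 0.71, lies above its interval.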

How the data were processed

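Total RNA from WT bone marrow cells was sequenced as paired reads of 150 bases, 1 library for the M-CSF culture (M) and 1 for the culture given RANKL as well (MR). The authors trimmed the reads with Trim Galore, aligned them with HISAT2 to mm10 (GRCm38) and ran StringTie with the GENCODE vM27 annotation, whose positions are on GRCm39. The deposited tables list for each entry the coverage signal (read depth per base), the FPKM and the TPM. In each library the TPM of the assembled loci sums to 1000000. The entries with gene names refer to GRCm39 positions and were not used for the values. Each assembled locus went to the GENCODE vM21 gene on its strand that placed the most exon bases inside it, with a minimum of 50, and TPM was summed per gene. A locus was called shared if it also held 50% or more of another coding gene by exon bases. Of all genes, 14436 had their own locus, 341 a shared one, and 392 lay inside another gene's locus and were given no value. The background uses genes with their own locus, and the lists also those with a shared one. The assignment was tested on simulated data.

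To estimate the aligned bases, coverage was divided by FPKM for each entry, and the value that recurred more than any other was taken. That value was held by 38.8% of entries in M and 41.0% in MR, so by fewer entries than not. Read pairs per gene were estimated from FPKM, the length of the shortest principal transcript and 300 bases per pair, and gave Poisson intervals for levels and Wilson intervals for ratios. Both cover counting error only. Genes that reached 1 TPM in M or MR were compared with log2 limits of 1 and -1. No p-value was computed. The erythroid marker list is not reported here. Named are all members, list genes past these limits that reached 5 TPM, and the IKK kinases, Traf6 and Tnfrsf11a. The members and lists were chosen with earlier results of these data known. The values were recomputed with a pseudocount of 0.1, without a filter, above 10 TPM, with FPKM, with median-of-ratios scaling, after removing mitochondrial and the 20 most abundant genes, with at least 200 exon bases, among genes with loci in both libraries, from coverage per aligned Gb, and with a log2 limit of 2. A mean over loci was chosen after seeing the data. The scripts ran under Python 3.11.15. They used numpy 2.4.6 and pandas 2.3.3, and figures were drawn with matplotlib 3.10.9. Intervals came from scipy 1.17.1.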

Additional observations from a re-analysis of the deposited data

Results flagged for a closer look

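A locus that was given to no gene lay on the strand of Nfkbia, 1931 bases beyond its 3′ end (chr12:55486050-55487479). It was at 1.51 TPM in MR, with a coverage of 2.0, and had no counterpart in M, which is why it stands out. It was in no comparison above.

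The entry named Nfkb1 in the deposited tables, which was not used because its position is that of another genome build, was at 0.36 TPM in M and 30.9 TPM in MR, whereas Nfkb1 by its own locus was at 43.5 and 61.3 TPM. On GRCm38 the listed span (chr3:135290416-135397308) lies over Bdh2, Slc9b2 and Slc9b1, which are on the plus strand, opposite to Nfkb1. Their own loci were at 8.99, 3.62 and 1.05 TPM in M and at 167, 514 and 6.39 TPM in MR.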

How the results depend on the processing

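Of 100 member ratios under the alternatives, 90 stayed within their 95% counting interval and 10 moved out of it. Of the members above 1, 0 changed sign. Rel, reported at 0.16, was at -0.01 after median-of-ratios scaling. Cyld, reported at 0.08, was at -0.09 after that scaling and at -0.01 without mitochondrial and the 20 most abundant genes. Many of the 90 are the reported ratio repeated. Settings that only change the filter, the exon bases or the need for loci in both libraries left every member unchanged. A mean over loci changed only Relb among the members. Median-of-ratios scaling gave 3 members and 1 target gene above 1, beside 2452 of all genes tested. It gave a median of 0.021 for the 52 machinery genes. Under it the list medians were -0.41 (IKK kinases), 0.92 (TRAF and cIAP), 0.014 (ubiquitin assembly), -0.28 (other brakes) and -0.83 (receptors). A limit of 2 left 1 member above it, 3 machinery genes above and 2 below, 1 target gene above and 3 below, and 958 of all genes above and 521 below. A TPM of at least 10 left 1601 genes above 1 and 983 below -1, from 8680 genes tested, and a TAK1 median of 0.77, without Tab3. With loci of their own in both libraries, 1795 genes were above and 1102 below, and the ubiquitin median was -0.055. By coverage, 1 target gene was above 1, beside 2107 of all genes tested, and the IKK and ubiquitin medians were -0.37 and -0.11. The subunit shares by coverage were, in M, 21.9% for Nfkb1, 32.7% for Rela and 10.7% for Rel. In MR they were 17.7% for Nfkb1, 37.7% for Nfkb2, 18.9% for Rela, 18.7% for Relb and 7.06% for Rel. With a mean over loci the M shares were 32.0% for Rela and 9.79% for Relb. Commd1 had a log2 ratio of 2.43 by coverage, against -1.25. Median-of-ratios scaling applies 1 factor to all genes of a library, which lowers each log2 ratio by about 0.18 before 1 is added. Beyond that shift, and except where a setting tests fewer genes or sets another limit, the cause was not tested. No paired analysis was possible because each condition has 1 library, and for the same reason no library could be left out. Counting error from the depth is the only error that these libraries allow, and it limits Map3k14, Nfkbie and Relb most.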

Other observations

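Beside the members, a locus with no gene lay on the plus strand 1821 bases from Relb (chr7:19631259-19633723), on the opposite strand. It was at 24.9 TPM in M and 21.9 TPM in MR, near the level of Relb in M.

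The other entries named after members, which were likewise not used, had TPM values unlike those of the genes' own loci. The entry named Rela was at 10.2 TPM in M and 16.5 TPM in MR, and that named Map3k14 at 1.94 and 2.77 TPM. The entries named Nfkbia, Nfkbie and Cyld were at 0 TPM in both libraries.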
